A study of Homo sapiens with 20 samples.

Results

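The mevalonate pathway genes were examined in human lung cancer cells treated with decitabine (DAC), a nucleoside drug that traps DNA methyltransferases and leads to their loss. Members were the rows of the expression table with the symbols HMGCS1, MVK, PMVK, MVD, IDI1, FDPS, FDFT1 and GGPS1. All 8 were found among the 36076 genes of the table, and all 8 were among the 22603 genes tested for a change after DAC. The lung cancer lines A549, CL1-0, CL1-5, PC9, H1299 and H1792 were given 100 nM DAC for 72 hours and then kept for 3 days without drug, while Mock cells received PBS. All 6 lines had mRNA-seq, and 4 of them, H1299, PC9, CL1-5 and A549, also had Omni-ATAC-seq, an assay of chromatin accessibility, at 1 library for each line and treatment. The lines therefore served as replicates, and no test was possible within a line. CL1-5 is known as an invasive subline selected from CL1-0, so these lines share an origin.

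The pathway turns acetyl-CoA into mevalonate and then into isopentenyl pyrophosphate, the building block of isoprenoids and cholesterol. HMGCS1 makes HMG-CoA, MVK and PMVK add phosphate groups, MVD makes isopentenyl pyrophosphate, and IDI1 converts it to its isomer. FDPS joins these units to farnesyl pyrophosphate, from which FDFT1 makes squalene for sterols and GGPS1 makes geranylgeranyl pyrophosphate for protein prenylation. Isopentenyl pyrophosphate is the phosphoantigen that tumor cells present, through the butyrophilins BTN3A1 and BTN2A1, to the main subset of γδ T cells in blood. Aminobisphosphonates such as zoledronate raise it by blocking FDPS. The transcription factor SREBP2 drives most of these genes when sterols are low. Only mRNA and promoter accessibility were measured here, and metabolites were not.

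Some properties of the libraries bear on these genes. FPKM, the reads of a gene scaled by its length and by library size, were deposited for each library. The reads behind them came to between 22234485 and 25303899 per library in the 10 libraries outside H1299, and to 59735913 and 52634234 in H1299 Mock and DAC. The H1299 libraries stood apart in their read numbers. Among genes with 1 to 20 reads, 85.5% and 81.9% had an even number in H1299, against 39.2% to 41.5% elsewhere, and processed pseudogenes took 1.42% to 1.57% of its reads, against 0.178% to 0.227%. In the accessibility data, the libraries labelled CL1-5 and PC9 went against the expression data. Of 239 genes that PC9 expressed and CL1-5 did not, the Mock library labelled CL1-5 held a peak at the promoters of 75.3% and that labelled PC9 at 34.3%, and of 173 genes with the reverse expression the shares were 44.5% and 79.2%. Labels were kept as deposited, and these libraries are named by their labels.

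Promoter windows of 4 of the genes are shown because they differ in the CCAAT box, the site of NF-Y, which acts beside SREBP2 at many sterol-regulated promoters. Each runs from 250 bases before to 50 bases after a RefSeq transcript start on GRCh38.p14, and capitals mark CCAAT or its reverse complement ATTGG.
HMGCS1, chr5:43313363-43313662, minus strand: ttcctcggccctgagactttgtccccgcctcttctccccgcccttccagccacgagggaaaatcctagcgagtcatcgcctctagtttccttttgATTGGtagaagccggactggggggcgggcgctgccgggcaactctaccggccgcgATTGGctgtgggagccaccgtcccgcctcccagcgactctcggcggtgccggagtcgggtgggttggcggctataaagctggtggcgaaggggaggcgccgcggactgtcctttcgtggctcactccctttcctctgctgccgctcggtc
MVK, chr12:109573544-109573843, plus strand: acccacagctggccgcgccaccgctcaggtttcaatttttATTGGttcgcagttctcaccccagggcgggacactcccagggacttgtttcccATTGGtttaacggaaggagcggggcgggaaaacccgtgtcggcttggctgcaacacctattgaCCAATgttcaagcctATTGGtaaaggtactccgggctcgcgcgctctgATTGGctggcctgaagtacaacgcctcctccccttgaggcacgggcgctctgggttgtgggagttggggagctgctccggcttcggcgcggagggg
PMVK, chr1:154936670-154936969, minus strand: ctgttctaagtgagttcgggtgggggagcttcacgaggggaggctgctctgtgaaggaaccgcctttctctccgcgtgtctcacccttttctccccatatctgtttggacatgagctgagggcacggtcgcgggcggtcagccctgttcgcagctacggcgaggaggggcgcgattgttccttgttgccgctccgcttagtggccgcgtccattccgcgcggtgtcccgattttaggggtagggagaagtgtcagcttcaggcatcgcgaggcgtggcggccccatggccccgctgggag
FDPS, chr1:155308616-155308915, plus strand: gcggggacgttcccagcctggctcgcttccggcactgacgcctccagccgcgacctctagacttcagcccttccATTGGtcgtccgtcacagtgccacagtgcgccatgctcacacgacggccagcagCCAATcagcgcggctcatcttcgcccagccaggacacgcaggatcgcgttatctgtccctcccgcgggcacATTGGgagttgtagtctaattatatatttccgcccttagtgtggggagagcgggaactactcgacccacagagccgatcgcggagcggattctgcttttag
MVK held 5 such matches, FDPS 3 and HMGCS1 2, and PMVK held 0. The other HMGCS1 window, not shown, held 0. Over 12 windows of the 7 genes searched, 7 windows of 6 genes held the motif, against 34.6% of 34796 promoters of the same length. Some windows of HMGCS1 and of IDI1 overlap each other, so the 12 are not separate promoters. MVD and 1 window of IDI1 held 3 matches each, and in the latter a CCAAT and an ATTGG overlap. The string TCACNCCAC, 1 form of the sterol response element, was searched on both strands. It was in 0 of the 12 windows and in 1.12% of all promoters. Looser forms were not searched, so this does not show that the windows lack such elements. The GC box GGGCGG was in 11 of the 12 windows and in 44.9% of all promoters. FDFT1 was not searched. These are matches of letters, and no binding was measured.

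Levels along the pathway were compared in FPKM, which are per length. FDFT1, the squalene synthase, was first or second among the 8 genes in 10 of 12 libraries, with values from 21.6 to 59.1 FPKM. MVK, the mevalonate kinase, was the lowest of the 8 in 12 of 12 libraries, from 1.96 to 8.75 FPKM. GGPS1 was among the lowest 2 in 8 libraries. The other genes changed places between lines. PMVK, the phosphomevalonate kinase, led in 3 libraries and was second to last in 2. HMGCS1 spanned the widest range, 8.86 to 91.2 FPKM, with a 10.3-fold spread between the Mock libraries of the 6 lines against a 1.85-fold spread for FDPS.

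**Figure D1:**
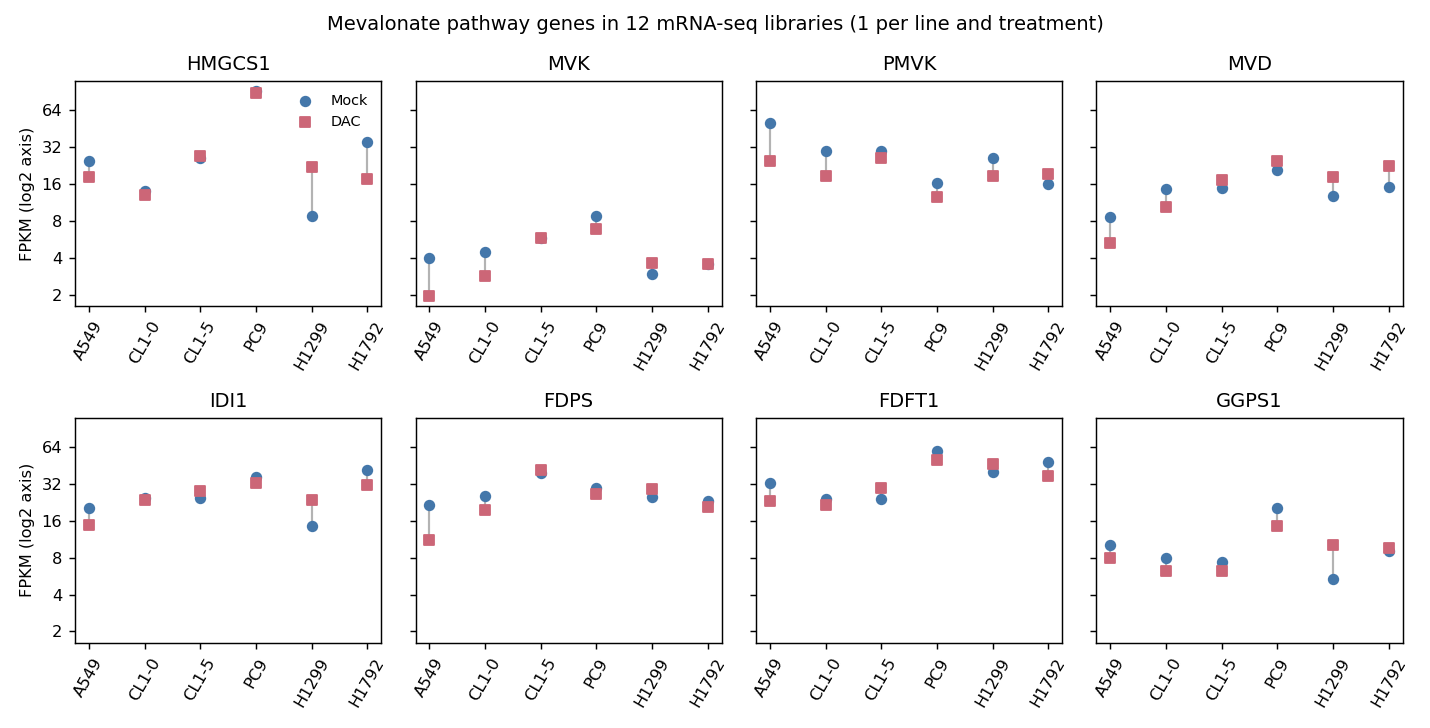
Level of each of the 8 genes by cell line, in FPKM on a log2 axis, with Mock as circles and DAC as squares and 1 library per point. By the mean of Mock and DAC, PC9 stands highest for HMGCS1, MVK, MVD, FDFT1 and GGPS1 and lowest for PMVK, and MVK is the lowest gene throughout.

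All 8 genes differed between the cell lines in limma's F test over the 12 libraries with treatment as a covariate, as did 78.4% of the 22814 genes tested. Adjusted p-values of this limma test ran from 0.00462 for HMGCS1 to 0.0325 for GGPS1. No line had a repeated Mock library, so the Mock and DAC libraries of a line stood in for replicates. The count fell to 3 of 8 without the PC9 libraries. Of all genes, 15762 of 22416 differed without them, against 17882 of 22814 with them. By the mean log2 value of Mock and DAC, PC9 was the highest line for 5 of the 8 genes and the lowest for PMVK. A549 was the lowest line for 4, namely MVK, MVD, IDI1 and FDPS, and the highest for PMVK.

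The order of the lines was clear in places only. For HMGCS1, the Mock and DAC values of PC9 lay above those of every other line, and each neighbouring pair of lines further down the order, from CL1-5 through H1792, A549 and H1299 to CL1-0, overlapped. For MVK, PC9 and then CL1-5 stood clear, and the 4 lines below overlapped each with the next. For PMVK, every line overlapped with its neighbour, in the order A549, CL1-5, CL1-0, H1299, H1792 and PC9. For MVD, A549 alone stood clear, at the bottom. IDI1 was highest in H1792 and PC9, which overlapped, and lowest in H1299 and A549, which overlapped. FDPS stood clear in CL1-5 only, at the top, and GGPS1 in PC9 only. FDFT1 stood clear in PC9, then H1299 and H1792 overlapped, and A549, CL1-5 and CL1-0 followed as overlapping neighbours.

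PMVK also ran against the rest of the pathway across libraries. The log2 values of PMVK correlated with the mean of the other 7 genes at r = -0.51 over the 12 libraries, and each of the other genes correlated with the mean of its own 7 at 0.52 for FDPS to 0.89 for MVK. These are descriptions over libraries that share lines and scaling.

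HMGCS1, the enzyme that makes HMG-CoA, stood at 24.6 FPKM in A549 Mock and 18.3 in A549 DAC, 14.2 and 13.1 in CL1-0, and 26.1 and 27.1 in CL1-5. It was 91.2 and 88.8 in PC9, 8.86 and 22.0 in H1299, and 35.4 and 17.7 in H1792. The DAC value was higher in H1299 and lower in H1792, and the other 4 lines differed less. In H1299 the DAC value was 2.47-fold the Mock value, at percentile 94.1 of the changes of all genes tested in that line, and in H1792 it was 0.502-fold, at percentile 5.85.

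MVK stood at 3.97 FPKM in A549 Mock and 1.96 in A549 DAC, 4.43 and 2.85 in CL1-0, and 5.83 and 5.83 in CL1-5. It was 8.75 and 6.89 in PC9, 2.94 and 3.64 in H1299, and 3.58 and 3.57 in H1792. Its DAC value was lower in A549, CL1-0 and PC9, higher in H1299, and within counting error of Mock in CL1-5 and H1792. The A549 value rests on 321 reads after DAC, the fewest behind any of the 8 genes.

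PMVK stood at 50.4 FPKM in A549 Mock and 24.7 in A549 DAC, 29.5 and 18.8 in CL1-0, and 29.7 and 26.2 in CL1-5. It was 16.3 and 12.5 in PC9, 25.9 and 18.7 in H1299, and 16.1 and 19.1 in H1792. PMVK was the only gene of the 8 with a lower value after DAC in each of the 5 lines of the fit, and it was higher in H1792. The Mock and DAC values of the 5 lines still overlapped, as they did for each of the 8 genes (0 of 8 separate, against 0.557% of all genes tested).

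MVD, which makes isopentenyl pyrophosphate, stood at 8.60 FPKM in A549 Mock and 5.31 in A549 DAC, 14.6 and 10.5 in CL1-0, and 14.8 and 17.3 in CL1-5. It was 20.9 and 24.5 in PC9, 12.7 and 18.1 in H1299, and 15.3 and 22.3 in H1792. Its DAC values were thus lower in A549 and CL1-0 and higher in the remaining 4 lines.

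IDI1, the isomerase, stood at 20.3 FPKM in A549 Mock and 14.8 in A549 DAC, 24.5 and 23.8 in CL1-0, and 24.6 and 27.7 in CL1-5. It was 36.6 and 32.6 in PC9, 14.6 and 23.6 in H1299, and 41.7 and 31.0 in H1792. Of these, the CL1-0 values were within counting error of each other, and H1299 held the largest difference, 1.62-fold.

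FDPS, the farnesyl pyrophosphate synthase, stood at 21.3 FPKM in A549 Mock and 11.2 in A549 DAC, 25.3 and 19.6 in CL1-0, and 39.4 and 41.2 in CL1-5. It was 29.8 and 26.2 in PC9, 25 and 29.0 in H1299, and 23.1 and 20.5 in H1792. Mock values lay close together in all lines but CL1-5, and the A549 DAC value was the lowest of the 12.

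FDFT1 stood at 32.2 FPKM in A549 Mock and 23.03 in A549 DAC, 24.3 and 21.6 in CL1-0, and 24.0 and 29.6 in CL1-5. It was 59.1 and 49.9 in PC9, 39.8 and 46.3 in H1299, and 48.4 and 37.2 in H1792. DAC values were higher in CL1-5 and H1299 and lower in the other 4 lines, with no difference above 1.5-fold.

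GGPS1, on the geranylgeranyl branch, stood at 10.2 FPKM in A549 Mock and 8.01 in A549 DAC, 8.02 and 6.27 in CL1-0, and 7.31 and 6.22 in CL1-5. It was 20.3 and 14.5 in PC9, 5.40 and 10.2 in H1299, and 9.09 and 9.51 in H1792. H1299 held the lowest Mock value and a DAC value 1.87-fold higher, while A549, CL1-0, CL1-5 and PC9 had lower values after DAC.

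The lines did not move alike. Changes are given as log2(FPKM + 0.1) of DAC minus Mock. In A549, 8 of 8 genes were lower after DAC, against 42.2% of all genes tested, with a median change of -0.58 beside 0.07 for all genes. Changes ran from -1.03 for PMVK to -0.35 for GGPS1, and 4 genes, PMVK, MVK, FDPS and MVD, were at least 1.5-fold lower, against 17.1% of all genes. Among the 13233 genes that averaged 1 FPKM or more, the shares in A549 were 51.4% lower and 19.9% at least 1.5-fold lower. In CL1-0, 8 of 8 genes were lower, against 43.8% of all genes, with a median of -0.36, and MVK and PMVK were at least 1.5-fold lower, against 6.26%. In PC9, 7 of 8 were lower, against 42.9%, with a median of -0.21, and MVD alone was higher. Among genes that averaged 1 FPKM or more, 53.5% were lower in CL1-0, 4.44% at least 1.5-fold, and 50.2% were lower in PC9.

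In H1299 the direction was the opposite for most of the pathway. There, 7 of 8 genes were higher after DAC, against 43.4% of all genes, with a median of 0.40, and PMVK alone was lower, at -0.47. HMGCS1 at 1.31, GGPS1 at 0.90 and IDI1 at 0.69 were at least 1.5-fold higher, against 15.7% of all genes. Among genes that averaged 1 FPKM or more, 51.1% were higher in H1299 and 15.5% at least 1.5-fold higher. CL1-5 showed small changes, with 6 of 8 higher, against 49.2%, and a median of 0.06. H1792 was mixed, with 5 of 8 lower, against 41.4%, a median of -0.09, HMGCS1 at -0.99 and MVD at 0.55. At 1 FPKM or more, 51.8% of genes were higher in CL1-5 and 47.5% lower in H1792. For 41 of the 48 changes, the 95% counting interval did not include 0. This interval covers counting error only, and the share of all genes was not counted. For H1299, whose reads mostly came in even numbers, each pair of reads was counted as 1 in that interval.

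**Figure D2:**
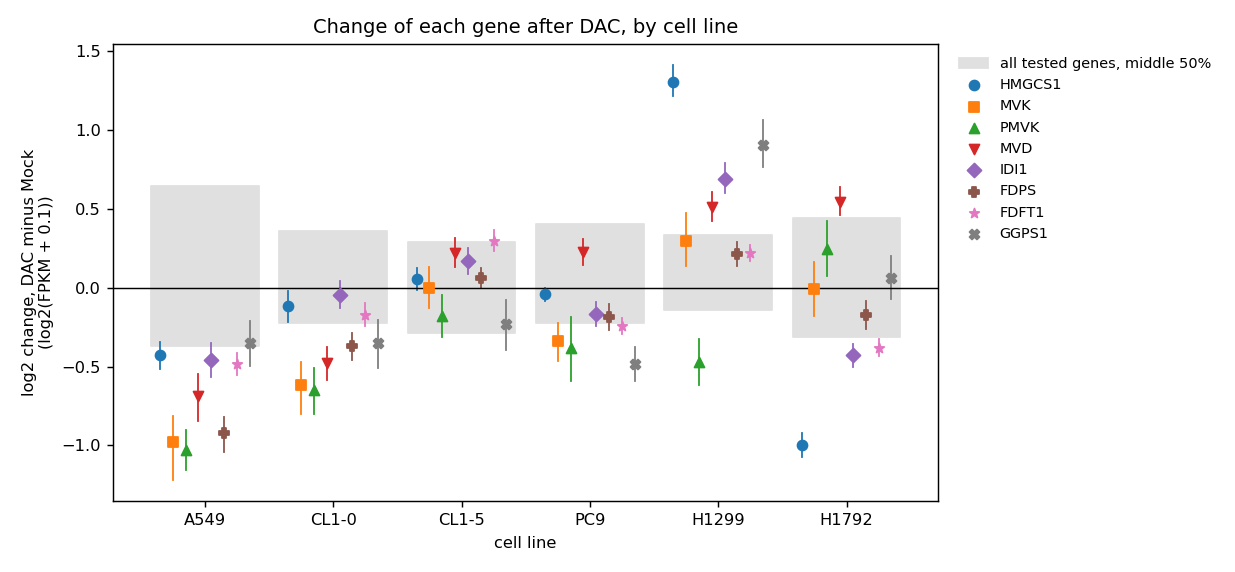
Change of each gene after DAC by cell line, in log2(FPKM + 0.1) of DAC minus Mock, with bars for the 95% counting interval and grey boxes for the middle 50% of all genes tested. All 8 genes lie below 0 in A549 and CL1-0, and 7 of 8 lie above 0 in H1299.

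Being lower in A549 and CL1-0 and higher in H1299 was shared by 7 of the 8 genes, all but PMVK, and by 12.1% of all genes tested or 18.1% of those averaging 1 FPKM or more. This pattern was taken from the changes of the 8 genes themselves, so the count describes them and tests nothing. The count depends on the scaling of the libraries. The FPKM of A549 summed to 416327 in Mock and 326951 after DAC, and rescaling each library to a common sum (TPM) moved the median of all genes in A549 from 0.07 to 0.36. After that rescaling, 8 of 8 genes were still lower in A549, against 26.8% of all genes tested, with a median of -0.24. In CL1-0 5 of 8 were lower, against 30.2%, and in CL1-5 5 of 8, against 55.3%. With TPM, 4 genes had the pattern. With quantile normalization 8 of 8 were lower in A549, against 55.9% of all genes, and 5 genes had the pattern. In CL1-0 6 of 8 were lower, against 55.2%, and in CL1-5 4 of 8, against 52.1%. In H1299, 7 of 8 were higher under each. At least 1.5-fold lower were 2 genes in A549 and 0 in CL1-0 with TPM, and 4 and 1 with quantile normalization. At least 1.5-fold higher in H1299 were 3 genes with TPM and 2 with quantile normalization. Shares of all genes for the pattern and for 1.5-fold changes were not counted on these scales. H1299 was also the line whose read numbers stood apart, and the part of this in its changes was not tested.

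Over the 5 lines, 0 of the 8 genes passed the adjusted threshold of 0.05 in limma, fitted with a block for each line, and among all genes tested 0.119% were called higher and 0% lower. At an unadjusted p under 0.05, 8.07% of all genes were higher and 4.4% lower, and PMVK was the only gene of the 8 in either set. The fitted changes had a median of -0.09, beside 0.07 for all genes tested. By direction, HMGCS1 and IDI1 had fitted values above 0 and the other 6 below.

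PMVK had the fitted change farthest from 0, -0.54 ± 0.14 (SE, 5 lines), with an unadjusted p of 0.00585 and an adjusted p of 0.256 in limma, and 0.188 to 1.00 over the alternatives. Its value was lower in 5 of 5 lines, also after TPM and quantile scaling, as were the values of 4.39% of all genes tested and 6.93% of those averaging 1 FPKM or more. With H1792 in the fit, PMVK was at -0.41. The difference did not pass the correction for the genes tested.

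The remaining fitted changes were within 2 standard errors of 0. MVK was at -0.33 ± 0.20 and FDPS at -0.24 ± 0.17. GGPS1 was at -0.10 ± 0.21, FDFT1 at -0.08 ± 0.14 and MVD at -0.04 ± 0.19, and these 3 turned to 0.02, 0.05 and 0.08 after TPM scaling. IDI1 was at 0.04 ± 0.17 and HMGCS1 at 0.16 ± 0.24, with adjusted p-values of 0.936 and 0.790 in limma.

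H1299 weighed on these values. Without it the median of the 8 genes was -0.26, HMGCS1 was at -0.13, IDI1 at -0.12 and GGPS1 at -0.35, so that all 8 genes lay below 0 over the remaining 4 lines. None passed the threshold there either, and in that fit 22 genes were called higher and 1 lower, with 1594 and 961 at an unadjusted p under 0.05.

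**Figure D3:**
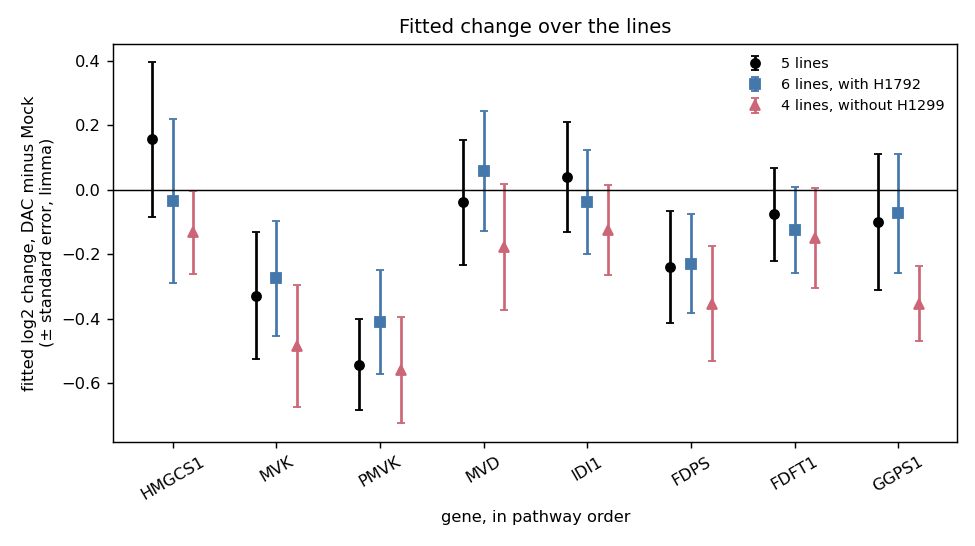
Fitted log2 change after DAC with its standard error from limma for each gene, over 5 lines (circles), 6 lines with H1792 (squares) and 4 lines without H1299 (triangles). PMVK lies lowest over the 5 lines, at -0.54, and HMGCS1 and IDI1 lie above 0 only in the fit of the 5 lines.

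The levels of genes on either side of a metabolite were set against each other within a library. FDPS uses what MVD makes, and the ratio of FDPS to MVD in FPKM was 2.46 and 2.08 in A549 Mock and DAC, 1.73 and 1.86 in CL1-0, and 2.64 and 2.37 in CL1-5. It was 1.42 and 1.07 in PC9, 1.96 and 1.60 in H1299, and 1.51 and 0.920 in H1792. The ratio was lower after DAC in 4 of the 5 lines and in 5 of 6, all but CL1-0, with a mean log2 change of -0.20 ± 0.20 (SD, n = 5). Common scaling of a library nearly cancels in such a ratio. In H1299 the FDPS level is uncertain for the reason given with its pseudogene.

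FDFT1 and GGPS1 both draw on farnesyl pyrophosphate. The ratio of FDFT1 to GGPS1, taken in the same way, was 3.12 and 2.85 in A549 Mock and DAC, 3.0 and 3.40 in CL1-0, and 3.26 and 4.70 in CL1-5. It was 2.90 and 3.42 in PC9, 7.26 and 4.51 in H1299, and 5.28 and 3.88 in H1792. The mean log2 change of 0.03 ± 0.46 (SD, n = 5) was smaller than the spread between lines, with 3 lines higher and 2 lower.

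The rest of the pathway was described with lists of related genes, and 0 genes of any list passed the adjusted threshold in limma. ACAT2, which makes acetoacetyl-CoA upstream of HMGCS1, had a fitted change of -0.05 ± 0.20 over the 5 lines.

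The 12 genes of cholesterol synthesis after squalene had a median fitted change of -0.07, with TM7SF2 lowest at -0.34. By line, 10 of 12 were higher in H1299, 9 in CL1-5 and 8 in PC9, with line medians of 0.20, 0.07 and 0.06, and 3 each were higher in A549, CL1-0 and H1792, with medians of -0.48, -0.12 and -0.28. Of all genes tested, 43.4% were higher in H1299, 49.2% in CL1-5, 51% in PC9, 53.5% in A549, 50.5% in CL1-0 and 51.6% in H1792. Among genes averaging 1 FPKM or more, these shares were 51.1%, 51.8%, 48.4%, 48%, 45.2% and 51.2%, in the same order. After TPM scaling the medians of CL1-5 and CL1-0 changed sign, to -0.05 and 0.05, and that of A549 was -0.14. A549 had the lowest and H1299 the highest line median among the values as deposited, as for the 8 genes.

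Regulators and uptake genes had a median of -0.04 over 12 tested genes. At an unadjusted p under 0.05, 2 were higher, STARD4 and the lysosomal cholesterol exporter NPC1 at 0.53 ± 0.21, and 0 lower, against 8.07% higher and 4.4% lower of all genes. STARD4, a sterol transfer protein, was highest at 0.65 ± 0.22, with an adjusted p of 0.329 in limma, and SREBF1, which encodes SREBP1, was lowest at -0.37. The 5 tested sterol efflux genes had a median of 0.23, with the exporter ABCA1 at 0.84 and its activator NR1H3 at -0.51, the only 1 of the 5 with an unadjusted p under 0.05. ABCA1 values were 0.399 and 2.90 FPKM in A549 Mock and DAC, 0.202 and 0.797 in CL1-0, 0.924 and 1.43 in PC9, 9.26 and 7.39 in CL1-5, 2.27 and 1.95 in H1299, and 5.61 and 5.01 in H1792. It was thus higher after DAC in 3 lines and lower in the other 3, where the log2 changes were between -0.32 and -0.16.

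Isoprenoid-using enzymes had a median of -0.03 over 15 genes. COQ2, of coenzyme Q synthesis, was lowest at -0.34 and the only 1 with an unadjusted p under 0.05. Of the 15, 12 were higher in H1299, 10 in CL1-5, 8 in H1792, 7 in CL1-0, 5 in PC9 and 3 in A549, to be read against the shares of all genes given for cholesterol synthesis. After TPM scaling the line medians changed sign in each line but H1299, where they were 0.37 and 0.41. They went from -0.30 to 0.04 in A549, -0.10 to 0.07 in PC9 and -0.004 to 0.17 in CL1-0. In CL1-5 they went from 0.05 to -0.06 and in H1792 from 0.03 to -0.13. The 6 phosphoantigen sensing genes had a median of -0.10, with PPL highest at 0.48 and BTN3A1, which binds the phosphoantigen, lowest at -0.28. BTN3A1 was 2.09 and 2.91 FPKM in A549 Mock and DAC, 2.02 and 1.40 in CL1-0, 4.50 and 3.04 in CL1-5, 3.07 and 3.05 in PC9, 5.03 and 2.86 in H1299, and 9.43 and 8.60 in H1792. It was higher in A549 and lower in CL1-0, CL1-5 and H1299, with 1 library each and so no test within a line. BTN2A1, the partner of BTN3A1 in phosphoantigen sensing, was fitted at 0.27 ± 0.12, with an adjusted p of 0.406 in limma. It was 6.28 and 6.95 FPKM in A549 Mock and DAC, 12.6 and 12.5 in CL1-0, 15.9 and 20.6 in CL1-5, 4.51 and 6.49 in PC9, 18.7 and 23.4 in H1299, and 7.93 and 10.9 in H1792. BTN2A1 values were thus higher after DAC in each line but CL1-0. IDI2, the related isomerase, was near 0 in each library and was not tested.

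Among 13355 genes that averaged 1 FPKM or more over the 12 libraries, the 5 most like the mean of the 8 over the 12 libraries by Pearson correlation were SUPV3L1 at 0.937, PPA1 at 0.925, EIF2B5 at 0.915, HSD17B7P2 at 0.915 and PPP1R14B at 0.905. The mean of the 8 genes, each centred on its own mean log2 value, was highest in PC9 at 0.72 in Mock and 0.52 after DAC, and lowest in A549 after DAC at -0.68. PPA1, a pyrophosphatase, was 62.4 FPKM in PC9 Mock, and 30.1 and 19.5 in A549 Mock and DAC. HSD17B7P2 is a copy of HSD17B7, a gene of cholesterol synthesis, and counts of such near-identical copies are uncertain. The 12 points share lines, depth and scaling, so these values are descriptions.

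Copies and neighbours of the genes limit some values. On GRCh37, FDPS lies on chromosome 1 at 155278539 to 155290457, plus strand, and its processed pseudogene FDPSP2 on chromosome 7 at 76099479 to 76100375. FDPSP2 had 3816 and 3953 reads in H1299 Mock and DAC, and 0 to 8 reads in each of the other 10 libraries. Of the reads on FDPS and FDPSP2 together, FDPS held 58.2% and 59.0% in H1299, and at least 99.2% elsewhere. Its level in H1299 is therefore uncertain, while its change in H1299 was 0.21 alone and 0.19 with the reads on FDPSP2 added.

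**Figure D4:**
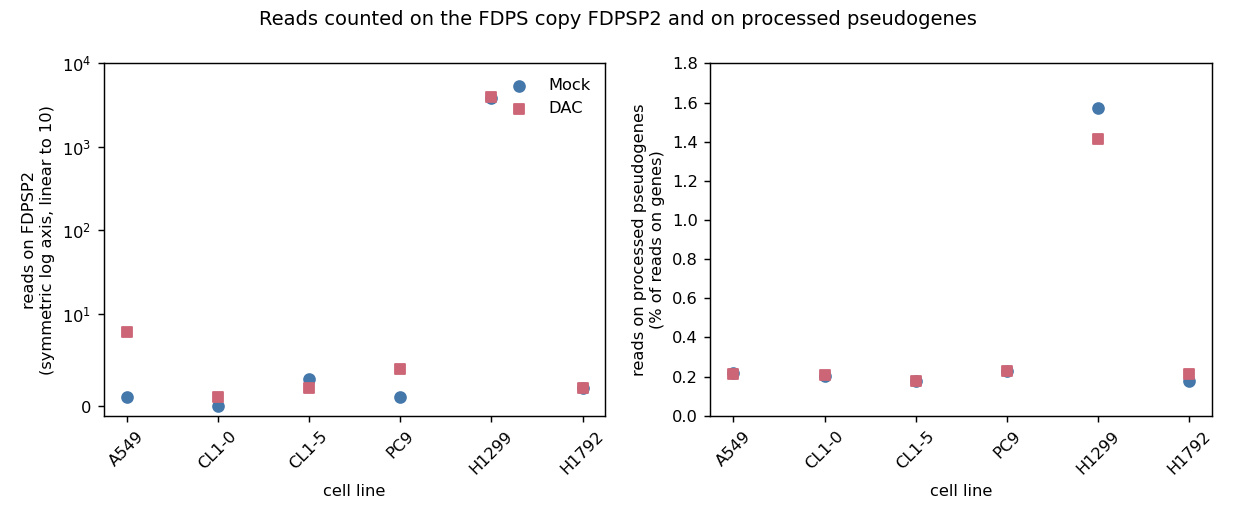
Reads on FDPSP2 (left, symmetric log axis that is linear up to 10) and reads on processed pseudogenes as a percent of reads on genes (right), by cell line, with Mock as circles and DAC as squares. The 2 H1299 libraries stand apart in both, at 3816 and 3953 reads and at 1.57% and 1.42%.

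The other members lie, on GRCh37, at chromosome 5, 43287572 to 43313614, minus strand (HMGCS1), chromosome 12, 110011060 to 110035930, plus strand (MVK), and chromosome 1, 154897216 to 154909195, minus strand (PMVK). MVD lies on chromosome 16, 88718343 to 88729569, and IDI1 on chromosome 10, 1085092 to 1095059, both on the minus strand. GGPS1 lies on chromosome 1, 235490665 to 235507847, plus strand, and FDFT1 lies on chromosome 8. MVK and MMAB, a gene of cobalamin metabolism, overlap on opposite strands with starts 325 bp apart. MMAB was at -1.31 in A549 and -0.09 in CL1-0, where MVK was at -0.98 and -0.62. ARID4B overlaps GGPS1 on the opposite strand with a start 869 bp away, and was at 0.96 in A549 and 0.01 in H1299, where GGPS1 was at -0.35 and 0.90. SNAI3-AS1 starts 137 bp from MVD and WDR37 starts 419 bp from IDI1, and RUSC1-AS1 overlaps FDPS on the opposite strand. Whether the counting used strand is not given in the sources used here, so reads of overlapping genes cannot be told apart.

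Promoter accessibility was read as the strongest Omni-ATAC-seq peak within 1000 bp of the gene start, ranked within each library among 18417 genes, since a fold enrichment can be compared only within its own peak list. A peak was present in 61 of 64 pairs of gene and library. Of all genes ranked, 66.7% to 73.1% had such a peak, depending on the library. The 3 pairs without a peak were FDFT1 in Mock, whose annotated gene start lies 7168 bp from the start of its canonical transcript. At canonical starts, an alternative added after the data were seen, a peak was present in 64 of 64 pairs. Each of the 8 promoters thus held a peak in Mock and after DAC in each of the 4 lines. Most genes ranked also held a peak at their gene start, and the share at canonical starts was not counted.

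The promoters fell into ranges. MVK was at percentiles 95.7 to 99.6 over the 8 libraries, HMGCS1 at 92.8 to 99.3 and IDI1 at 92.3 to 98.8. GGPS1 was at 72.7 to 84.5, FDPS at 66.3 to 81.0 and MVD at 64.7 to 85.6, and PMVK was lowest at 44.5 to 81.7. FDFT1 was at 14.4 to 95.9 at its gene start and at 82.6 to 95.1 at its canonical start. MVK, with the lowest mRNA of the 8, thus had a promoter rank among the highest, in a peak it shares with MMAB. The GGPS1 peak was listed for ARID4B in most libraries. In some libraries the IDI1 peak was listed for WDR37 and the MVD peak for SNAI3-AS1. Ranks of these genes may therefore not be of their own promoters alone.

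After DAC, the rank of the FDPS promoter was lower in 4 of 4 lines, from 80.7 to 71.1 in A549, 77.7 to 75.2 in the library labelled CL1-5, 81.0 to 68.0 in that labelled PC9 and 73.7 to 66.3 in H1299, a mean change of -8.09 ± 4.402 (SD, n = 4). FDPS mRNA was lower in A549 and PC9, higher in H1299 and within counting error of Mock in CL1-5. Since the accessibility libraries labelled CL1-5 and PC9 went against the expression data, matching these lines across the assays is uncertain. HMGCS1 was higher in 4 of 4 lines, by 1.57 ± 1.25, near the top of the scale. The share of all genes ranked that moved in the same direction in 4 of 4 lines was not counted. PMVK was at 59.97 and 61.7 in A549 Mock and DAC, 60.6 and 44.5 in the library labelled CL1-5, 61.5 and 65.6 in that labelled PC9, and 81.7 and 62.4 in H1299. PMVK thus moved in opposite directions between lines, -7.41 ± 12.01 on average, while its mRNA was lower in each of these lines. The mean changes of the others were -3.20 ± 12.03 for MVD, 0.54 ± 2.47 for MVK, 0.97 ± 4.22 for IDI1 and 2.38 ± 5.59 for GGPS1, each with lines in both directions.

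FDFT1 had the largest change of the 8 at the gene start and was higher after DAC in 4 of 4 lines. Its percentile there was 54.1 in A549 Mock and 95.9 in A549 DAC. It went from 14.4 to 54.6 in the library labelled CL1-5, from 15.0 to 75.8 in that labelled PC9 and from 16.7 to 69.1 in H1299, all 3 of which had a peak only after DAC. The mean change was 48.8 ± 9.65 (SD, n = 4). At the canonical start of FDFT1 it was 3.16 ± 3.06, with 1 of 4 lines lower, so the size of the change rests on the start used. The DAC lists hold more peaks than the Mock lists, and an exact two-sided permutation test over 4 pairs cannot give a p below 0.125, whatever the size of the changes.

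Over the 8 genes, the median change in percentile was 1.32 in A549, -0.55 in the libraries labelled CL1-5, 3.64 in those labelled PC9 and -0.86 in H1299. The mean of 0.89 ± 2.07 (SD, n = 4) was smaller than the spread between lines. A549 and H1299 had medians near 0, whereas the mRNA changes in these lines had opposite directions.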

How the data were processed

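mRNA-seq (12 libraries) and Omni-ATAC-seq (8 libraries) of lung cancer cell lines were compared between Mock and DAC by the line and treatment of their labels. By the study's methods, trimmed reads were mapped with RSEM and bowtie2 to hg19 (the submitters' processing notes name TopHat2 2.1.1) and counted over GENCODE genes. The authors deposited FPKM from DESeq2 1.24.0, beside a mean normalized signal per gene. The table also holds the authors' own fold changes and p-values, which were not used. For Omni-ATAC-seq, the authors aligned with BWA 0.7.17-r1188, removed duplicates with Picard 2.21.4 and SAMtools 1.9, called broad peaks per library with MACS2 2.2.5 and annotated them with ChIPseeker 1.20.0. The deposited lists give a fold enrichment and a −log10 q-value per peak, and the depth of these libraries is unknown. The number of value columns without a sample was 0.

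The mean signal of a gene gave the value of 1 read per library, and 100% of values came out as whole reads within 0.01. Genes that averaged 0.1 FPKM or more were tested on the log2(FPKM + 0.1) scale by limma 3.58.1 (R 4.3.3), using a block for the line, a trend and Benjamini-Hochberg adjustment at 0.05, over the 5 lines other than H1792, which was added in an alternative. The line pairs the libraries, since Mock and DAC cells came from the same culture, and after removal of the treatment means the libraries of a line correlated at 0.822 to 0.929 and those of different lines at 0.104 or less. P-values of the test for DAC are set against the spread of the change between lines. In the F test between lines, Mock and DAC of a line serve as its replicates. The error of the F test is thus the same spread of the DAC change. Fits were tested on simulated data. Pairs of neighbouring lines in an order overlap where the ranges of their Mock and DAC values do.

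Positions are from the GRCh37 annotation of GENCODE, which matched 35393 of 36076 identifiers, and all peaks lay within the lengths of its 24 chromosomes. Promoter windows are from RefSeq and each was found once in GRCh37 by exact match. Named genes were the 8 members, the highest and the lowest gene of each list, the 5 genes most like the mean of the members, and overlapping or promoter-sharing genes. Genes outside this rule, named after their values were seen, are NPC1, BTN2A1, IDI2 and FDPSP2. Some genes that the rule names are not reported here. The members, lists and most alternatives were chosen with earlier results of these data known. Python 3.11.15, numpy 2.4.6, pandas 2.3.3, scipy 1.17.1 and matplotlib 3.10.9 were used.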

Additional observations from a re-analysis of the deposited data

Results flagged for a closer look

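In groups of 4 or 6 libraries, a value was singled out where its gap to the nearest other value took more of the group's range than Dixon's test allows. Of 56 groups, 8 held such a value, where about 5% would for independent groups fixed in advance. The groups here share lines, and those of FDPSP2 were added after its values were seen, so the count is no measure against chance. In PC9, HMGCS1 stood at 91.2 FPKM in Mock and 88.8 after DAC, and GGPS1 at 20.3 FPKM in Mock, each above the other 5 lines. In H1299, FDPSP2 stood at 74.4 FPKM in Mock and 83.4 after DAC, against at most 0.353 in any other line. Among promoters, the MVK percentile after DAC was 95.7 in H1299, below the other 3 lines, the PMVK percentile in Mock was 81.7 in H1299, above the others, and the FDFT1 percentile at the annotated gene start in Mock was 54.1 in A549, where the other 3 lines had no peak.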

How the results depend on the processing

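Without the replicate block, 10 genes were called higher by limma in place of 27, and no gene was called lower in either. The count of higher genes was 53 with H1792 (6 lines), 0 with a pseudocount of 1, 2 without a filter, 17 with quantile normalization, 6 without the trend and 178 with voom on the reads, which also called 1 lower, and when a line was left out it was 0 without A549 or CL1-5, 5 without CL1-0, 12 without PC9 and 22 without H1299, with 1 lower without H1299 and 0 otherwise. None of the 8 genes passed the threshold in any of these 120 fitted values, whose adjusted p ran from 0.188 to 1.00, and leaving the block out changed no call on them. Fitted values near 0 changed sign in 13 of the 120. With H1792, HMGCS1 was at -0.036, MVD at 0.058 and IDI1 at -0.038. With TPM, MVD was at 0.083, FDFT1 at 0.048 and GGPS1 at 0.022, with quantile normalization FDFT1 was at 0.0057, and with voom MVD was at 0.000369. Without A549, MVD was at 0.12 and FDFT1 at 0.026, without CL1-0 MVD was at 0.0696, and without H1299 HMGCS1 was at -0.13 and IDI1 at -0.12. The cause of these shifts was not tested. The median of the 8 genes ran from -0.26 without H1299 to 0.03 with TPM, within the SD of 0.38 between lines. Genes that differ between lines were 11103 of 13363 when they had to average 1 FPKM or more, fewer because fewer genes were tested, and 13728 to 17564 when a line was left out. The change of the FDPS to MVD ratio ran from -0.29 to -0.15 over its alternatives and that of FDFT1 to GGPS1 from -0.10 to 0.20. The promoter percentile of the 8 genes changed by -1.19 when ranked by peak width and by -0.70 ± 1.25 (SD), lower in 3 of 4 lines, with only the peaks listed for each gene, against 0.89, and by -0.03 to 1.47 when a line was left out, and it was unaltered by exchanging the libraries labelled CL1-5 and PC9, since pairs stay together. The counts per line under TPM or quantile scaling and among genes averaging 1 FPKM or more, the canonical starts and the reads on FDPSP2 were added after the data were seen. So was the pattern over A549, CL1-0 and H1299. Precision is limited by 1 library per line and treatment and 5 lines, not by reads, of which the 8 genes had 321 to 12732 per library.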
